A study of Mus musculus with 12 samples.

Results

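Adipokines are proteins that fat cells release into the blood or the surrounding tissue. The group described here holds 10 genes, *Lep*, *Adipoq*, *Retn*, *Cfd*, *Rbp4*, *Nampt*, *Nrg4*, *Fgf21*, *Gdf15* and *Apln*, chosen by name. Of 14710 named genes tested on the array they are 10, and 12 of its 55681 probes measured them, with 2 probes each for *Retn* and *Nrg4* and 1 for each other gene. All 12 probes were well above background on all 12 arrays and entered the test, in which 32121 probes were compared. The genes were chosen with earlier results of these arrays known, and the study itself lists *Nrg4* among genes it picked on them, so its difference between genotypes in white fat is not independent evidence.

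White adipocytes store triglyceride and secrete leptin and adiponectin, hormones that act on appetite and on insulin sensitivity. Brown adipocytes burn fuel for heat, and when active they release other factors, of which NRG4 and FGF21 are the best known. White fat can take on brown features under cold or sympathetic stimulation, a change known as browning. LR11, encoded by *Sorl1*, is a sorting receptor of the LDL receptor and VPS10p domain families.

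RNA came from subcutaneous white adipose tissue (scWAT) and brown adipose tissue (BAT) of male *Lr11*-/- mice and wild-type (WT) littermates on a C57Bl6/J background, 12 weeks old, all fed a high-fat diet (HFD) with 60% of calories from fat. Each genotype was measured in each tissue, which gave 4 groups with 3 one-colour Agilent arrays apiece. One label states an HFD of 4 weeks and another a diet begun at weaning, so its length is uncertain. The deletion is not described as restricted to fat. Neither labels nor methods state that each array is a separate mouse or whether scWAT and BAT came from the same mice, so p-values measure the spread between arrays, which may be technical. In each group replicate 1 belonged to a first array series and replicates 2 and 3 to a second, and the numbers are otherwise only names.

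Levels are given as log2 intensity minus the 75th percentile of the array, so that a spot at that percentile has the level 0 (374 to 632 intensity units over the arrays). They are compared only within a probe, since different probes bind with different strength. *Sorl1* was between 0.11 and 1.21 on the WT arrays and between −3.93 and −2.45 on the *Lr11*-/- arrays. The groups were not uniform in their cells, as the plot of marker lists by array shows. WT scWAT replicate 2 had the lowest mean of the 10 adipocyte markers, 3.83 against 5.45 to 7.35 on the other arrays, together with the highest mean of the 6 measured macrophage markers, 3.83. *Lr11*-/- scWAT replicates 2 and 3 had 8 of the 10 brown adipocyte markers at or above the lowest BAT array, whereas *Lr11*-/- scWAT replicate 1 and all 3 WT scWAT arrays had 0. Skeletal muscle transcripts were high on 5 arrays (WT scWAT replicate 3, *Lr11*-/- scWAT replicate 1, WT BAT replicates 1 and 3 and *Lr11*-/- BAT replicate 1), where the mean of the 3 tested muscle genes was 6.97 to 9.56 against −2.60 to −0.85 on the other 7. *Lr11*-/- scWAT replicate 1 also carried epithelial keratins, with a list mean of 1.88 against −3.12 to −1.19 elsewhere. In bulk tissue, fewer cells of a type and less RNA per cell cannot be told apart.

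**Figure D1:**
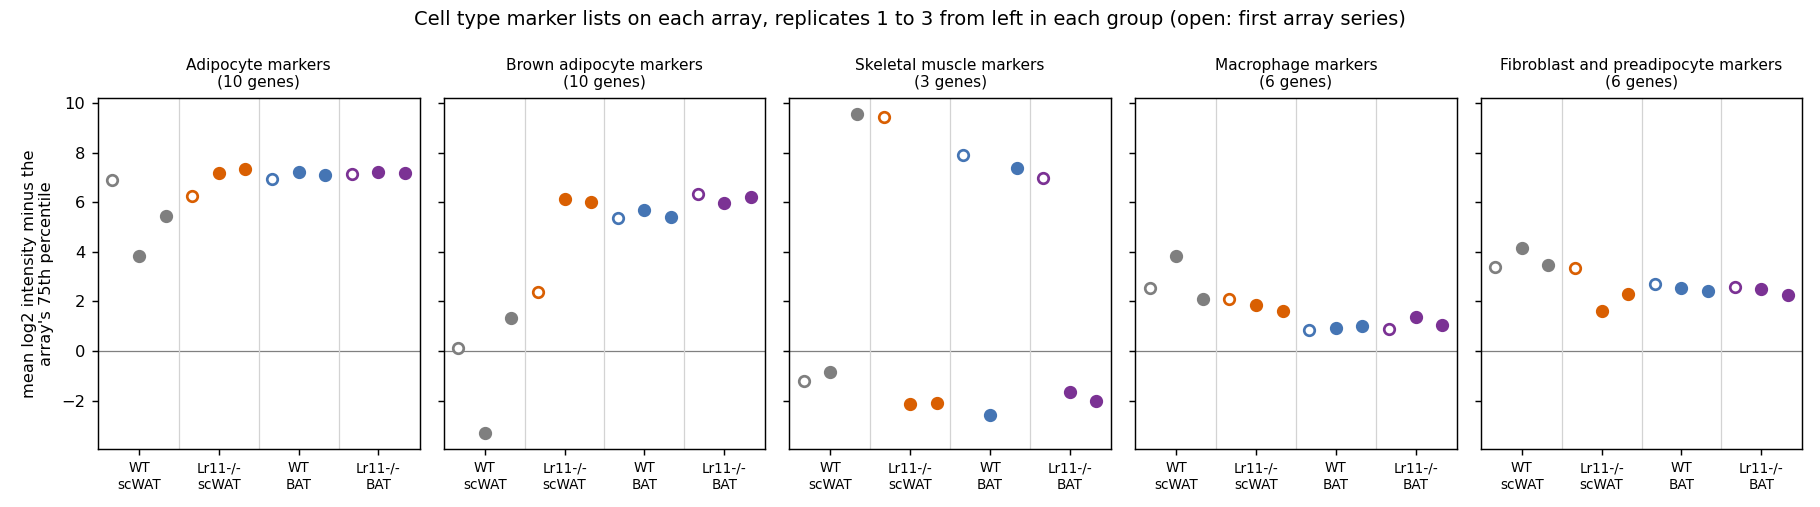
Mean log2 level (minus the array's 75th percentile) of 5 marker lists on each of the 12 arrays, in the 4 groups of genotype and tissue, open points for the first array series. The WT scWAT points spread from 3.83 to 6.91 for the adipocyte list, the brown list of *Lr11*-/- scWAT lies at 6.14 and 5.99 for replicates 2 and 3 and at 2.39 for replicate 1, and 5 arrays stand high for skeletal muscle.

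The promoters of *Nrg4*, *Nampt*, *Fgf21* and *Rbp4*, the 250 bases before the annotated start in RefSeq (GRCm38.p6), are shown. *Nrg4* and *Nampt* were lower on every WT scWAT array than on all other arrays. *Fgf21* was high on a pair of arrays with some stress response genes, and *Rbp4* stood apart in *Lr11*-/- BAT. All 10 genes matched an entry of the promoter table. Capitals mark the letters searched on both strands: TATAAA (the TATA box), GGGCGG (the GC box), TGACG (the core of cAMP response elements), TGATGNAA (the core of the amino acid and stress response element), AGGTCA (the core bound by nuclear receptors) and CCAAT. Matches on the opposite strand appear as their reverse complement, and CANNTG was searched but is not capitalised.

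Nrg4, chr9:55283626-55283875, minus strand: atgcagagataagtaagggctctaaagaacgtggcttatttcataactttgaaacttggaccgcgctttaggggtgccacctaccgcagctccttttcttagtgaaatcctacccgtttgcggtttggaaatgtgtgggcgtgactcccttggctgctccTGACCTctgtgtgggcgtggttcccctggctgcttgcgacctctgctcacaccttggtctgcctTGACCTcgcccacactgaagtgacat
Nampt, chr12:32820085-32820334, plus strand: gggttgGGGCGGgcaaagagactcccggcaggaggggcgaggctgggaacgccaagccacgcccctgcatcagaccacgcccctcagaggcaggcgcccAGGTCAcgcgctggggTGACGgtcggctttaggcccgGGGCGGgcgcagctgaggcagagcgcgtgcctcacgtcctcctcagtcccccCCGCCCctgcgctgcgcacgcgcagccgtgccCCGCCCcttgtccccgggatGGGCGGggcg
Fgf21, chr7:45615491-45615740, minus strand: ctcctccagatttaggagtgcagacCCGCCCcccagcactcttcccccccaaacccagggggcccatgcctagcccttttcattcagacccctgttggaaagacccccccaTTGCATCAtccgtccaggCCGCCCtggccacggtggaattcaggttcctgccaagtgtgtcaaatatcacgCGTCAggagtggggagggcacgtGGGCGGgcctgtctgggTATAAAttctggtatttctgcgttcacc
Rbp4 start 1, chr19:38125322-38125571, minus strand: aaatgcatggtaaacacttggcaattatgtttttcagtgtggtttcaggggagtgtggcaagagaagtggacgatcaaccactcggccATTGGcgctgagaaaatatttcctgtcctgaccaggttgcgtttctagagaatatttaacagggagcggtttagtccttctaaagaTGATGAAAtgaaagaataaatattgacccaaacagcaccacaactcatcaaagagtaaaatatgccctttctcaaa
Rbp4 start 2, chr19:38124812-38125061, minus strand: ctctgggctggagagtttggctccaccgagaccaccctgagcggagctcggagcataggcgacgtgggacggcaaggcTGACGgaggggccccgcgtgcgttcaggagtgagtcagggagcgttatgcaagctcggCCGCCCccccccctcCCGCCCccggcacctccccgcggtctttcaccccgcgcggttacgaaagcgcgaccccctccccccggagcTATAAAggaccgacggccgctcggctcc

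The *Nrg4* window held AGGTCA at 2 places, which 1.36% of the 32851 promoters of this length do, and the *Nampt* window held it once (14% of all promoters hold at least 1). GGGCGG occurred 5 times before *Nampt*, 3 times before *Fgf21* and 2 times before the second *Rbp4* start, against 32.7% of promoters with any. The *Fgf21* window held TGATGNAA once, a motif in 3.45% of promoters, and so did the first *Rbp4* window. TGACG (17.8% of promoters) was found before *Nampt*, *Fgf21* and the second *Rbp4* start, and TATAAA (12.4%) before *Fgf21* and the second *Rbp4* start. CCAAT (33.8%) was found before the first *Rbp4* start, and CANNTG (66.2%) in all of these windows except that of *Nrg4* and of the second *Rbp4* start. One CANNTG of *Fgf21* overlapped a GGGCGG by 1 base. A match describes the letters only.

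In scWAT, 1 of the 10 adipokines, *Nampt*, passed an adjusted p under 0.05 (limma) for the difference of the genotypes, where 5.27% of all tested probes did. *Nampt* and *Nrg4*, or 2 of 10, had no overlap between the WT and *Lr11*-/- arrays, where 20.4% of all probes had none. At an unadjusted p under 0.05 there were 3 of 10, these genes and *Apln*, beside 27.6% of all probes. The median log2 fold change of the 10 genes was 1.32, beside 0.04 over all probes and 1.655 over the 10 adipocyte markers. Of the 10 adipokines 8 had the higher mean in *Lr11*-/-, as did all 10 adipocyte markers. In BAT, limma called 0 of the 10 (0.0187% of all probes), with 1 at an unadjusted p under 0.05, *Rbp4*, where 2.12% of all probes passed that level. Of the 10 genes 4 did not overlap between genotypes in BAT, *Adipoq*, *Retn* and *Rbp4* with the higher and *Gdf15* with the lower values in *Lr11*-/-, against 12% of all probes. The median of the 10 genes in BAT was 0.27, beside 0.04 over all probes.

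**Figure D2:**
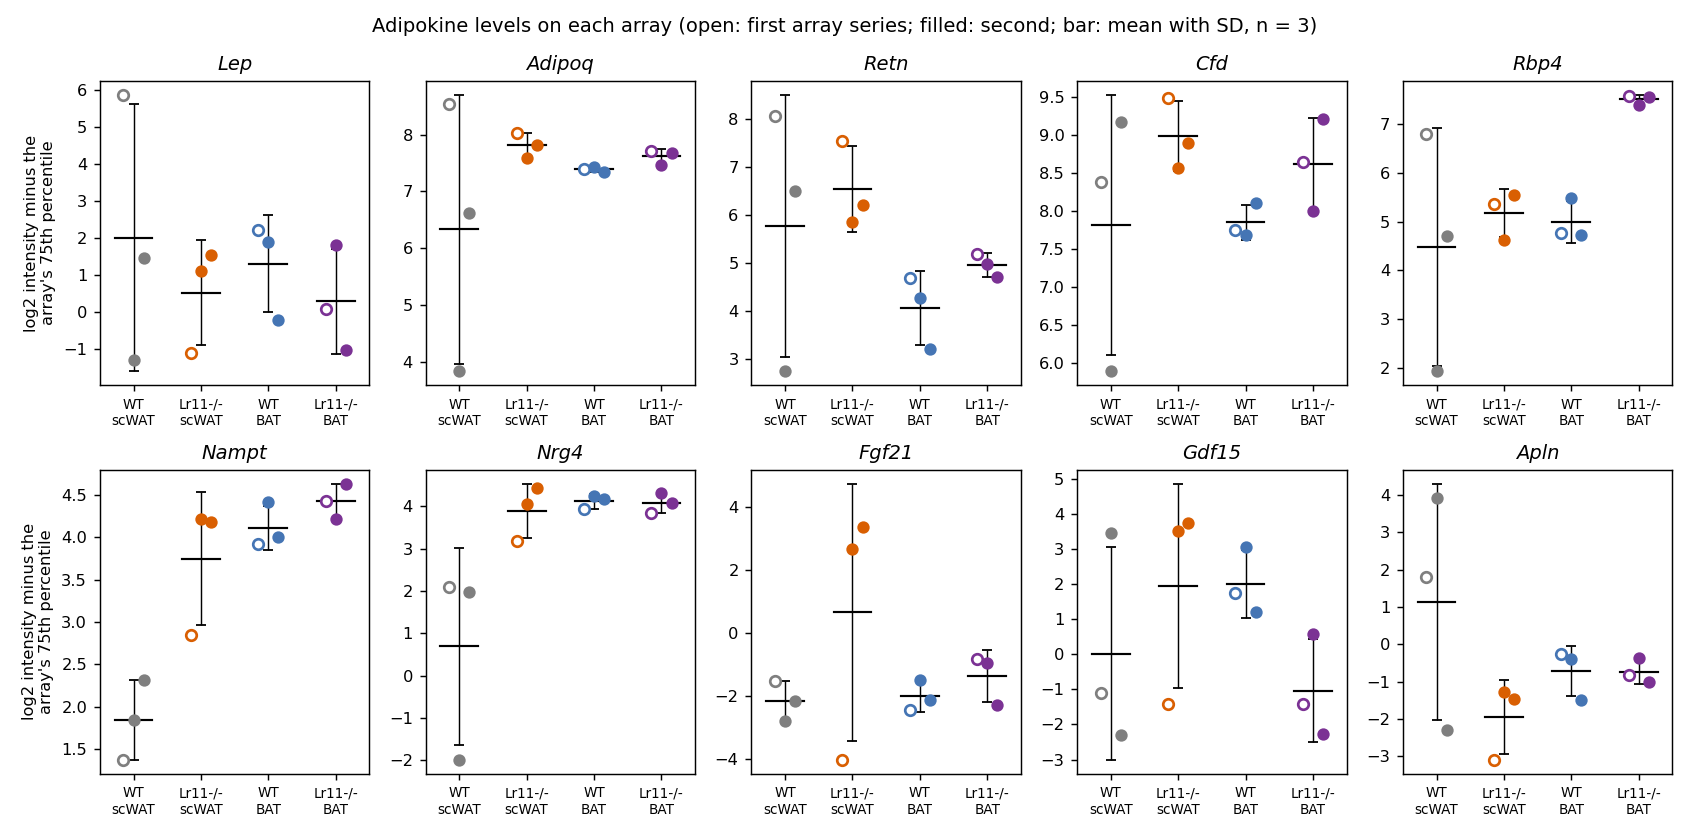
Level of each adipokine (log2 intensity minus the array's 75th percentile, a scale of its own in each panel) on the 12 arrays by group, with mean and SD of 3 arrays, open points for the first array series. The *Nampt* and *Nrg4* points of WT scWAT lie below all other groups, the *Rbp4* points of *Lr11*-/- BAT (7.40 to 7.57) lie above all other arrays, and the WT scWAT points spread widest for most genes.

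*Nrg4* encodes neuregulin 4, a ligand of ERBB3 and ERBB4 released by brown fat. The WT scWAT arrays measured 2.09, −1.99 and 1.99 for replicates 1 to 3, and those of *Lr11*-/- scWAT 3.18, 4.06 and 4.44. WT BAT had levels of 3.93, 4.25 and 4.17, and *Lr11*-/- BAT of 3.85, 4.31 and 4.07. Thus all 3 WT scWAT arrays were below the other 9, and of the *Lr11*-/- scWAT arrays replicate 1 lay below the 6 BAT arrays (3.85 to 4.31), replicate 2 within their range and replicate 3 above it. The log2 fold change in scWAT was 3.20 (SE 0.88, 95% interval 1.26 to 5.14, a 9.19-fold difference), with adjusted p = 0.058 in limma over all probes. The other probe gave 3.56 (SE 1.01, adjusted p = 0.063 in limma). The lowest value, WT scWAT replicate 2, was on the array with few adipocyte transcripts, and without it the log2 fold change was 1.86 (adjusted p = 0.048 in limma, in a range of 0.018 to 0.32 over the alternatives). Relative to the mean of the adipocyte markers on the same array, the difference was 1.67 (adjusted p = 0.097 in limma). Within the array series it was 1.09 in the first and 4.26 in the second. In BAT the genotypes differed by −0.04 (95% interval −1.98 to 1.90).

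*Nampt* encodes the enzyme that makes nicotinamide mononucleotide from nicotinamide, the rate-limiting step of NAD salvage, and it is also secreted as visfatin. *Nampt* rose in *Lr11*-/- scWAT. The WT scWAT levels were 1.37, 1.85 and 2.31 and the *Lr11*-/- levels 2.84, 4.22 and 4.18. WT BAT measured 3.92, 4.41 and 4.00 and *Lr11*-/- BAT 4.43, 4.22 and 4.64. All WT scWAT arrays were below all others, and *Lr11*-/- scWAT replicates 2 and 3, those with brown markers at the BAT level, lay within the range of BAT while replicate 1 lay between. The log2 fold change in scWAT was 1.91 (SE 0.38, 95% interval 1.07 to 2.74, 3.75-fold), with adjusted p = 0.036 in limma. A two-sided exact permutation test gave p = 0.1, the smallest that 3 arrays against 3 allow.

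The *Nampt* call was narrow. When any 1 of the 12 arrays was dropped the log2 fold change stayed between 1.67 and 2.36, while the adjusted p in limma ran from 0.0012 to 0.16. The adjusted p rose above 0.05, and the call was lost, without WT scWAT replicate 2 (0.082) or *Lr11*-/- scWAT replicates 2 (0.15) or 3 (0.16). The same held without any 1 of the 6 BAT arrays (0.059 to 0.064). Over the whole set of alternatives the adjusted p in limma ran from 0.0012 to 0.67. Relative to the adipocyte marker mean of the same array the difference was 0.37 (adjusted p = 0.67 in limma). It was 1.47 in the first and 2.12 in the second array series, and 2.59 without the arrays that carried muscle RNA (2 arrays against 2, adjusted p = 0.018 in limma). The adipocyte list had summed levels of 8.93 to 11.18 (log2 of the sum over its 10 genes) in WT scWAT and 10.62 to 11.62 in *Lr11*-/- scWAT, and the brown list 1.17 to 8.04 and 8.65 to 11.85. The part of these cell type markers in the *Nampt* and *Nrg4* differences was not tested further.

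**Figure D3:**
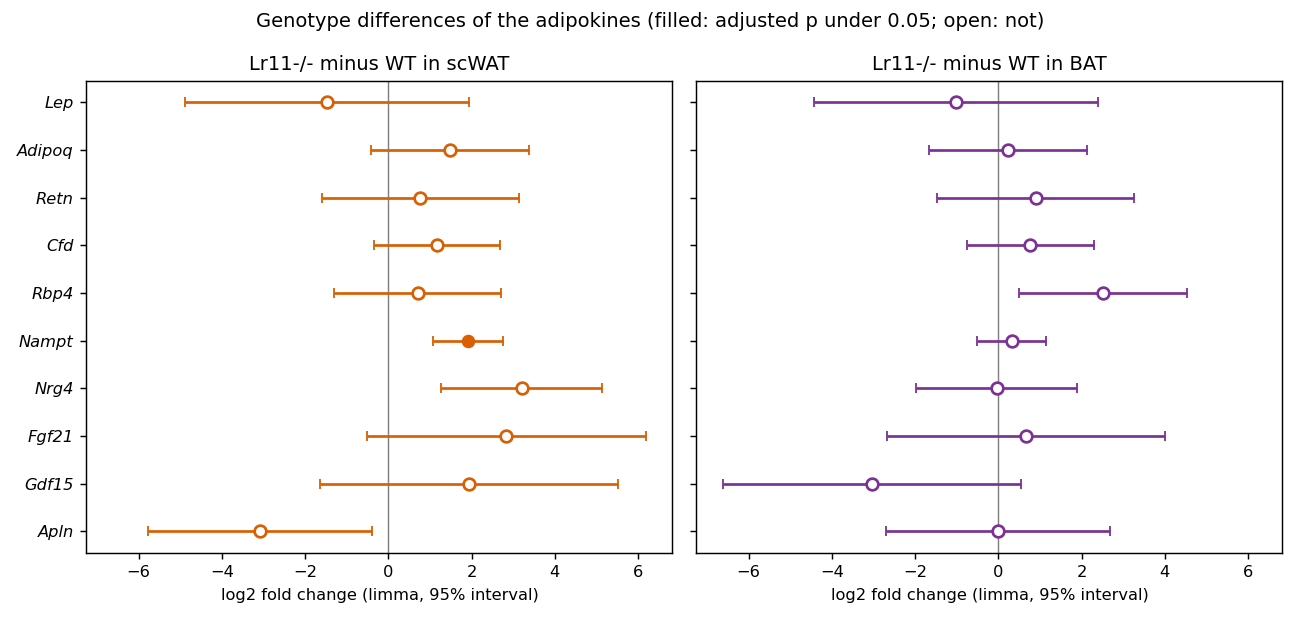
Log2 fold change of the 10 adipokines between *Lr11*-/- and WT, in scWAT (left) and BAT (right), with 95% intervals from limma (n = 3 arrays per group, 1 spread shared by the groups); filled points have an adjusted p under 0.05. Only *Nampt* in scWAT is filled, at 1.91, and *Rbp4* in BAT stands at 2.52 with an interval above 0.

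Among the classical adipocyte hormones, *Adipoq*, which encodes adiponectin, was nearly constant outside WT scWAT. The WT scWAT levels of 8.55, 3.84 and 6.61 stood beside 8.03, 7.59 and 7.81 for *Lr11*-/- scWAT. WT BAT gave 7.39, 7.43 and 7.35 and *Lr11*-/- BAT 7.71, 7.47 and 7.67, where every *Lr11*-/- array was above every WT array by a small margin. The scWAT groups overlapped, at a log2 difference of 1.48 (SE 0.86, adjusted p = 0.29 in limma), and in BAT it was 0.23 (SE 0.86, adjusted p = 1). Without WT scWAT replicate 1 the scWAT value was 2.59 (adjusted p = 0.03 in limma, in a range of 0.03 to 0.95 over the alternatives), and without replicate 2 it was 0.23. The SD over the 3 arrays was 2.37 in WT scWAT and 0.04 in WT BAT.

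*Lep*, which encodes leptin, was the most variable of the 10 in WT scWAT (SD 3.60, above that of 99.4% of tested probes). The WT scWAT arrays had 5.86, −1.28 and 1.46 and the *Lr11*-/- scWAT arrays −1.09, 1.12 and 1.55. WT BAT had 2.22, 1.90 and −0.20, and *Lr11*-/- BAT 0.08, 1.81 and −1.01. A single array, WT scWAT replicate 1, was high, and all groups overlapped. The probe was printed on 10 spots, whose SD within an array was 0.05 to 0.13, so the spread lay between arrays and not between spots. The log2 fold change was −1.49 in scWAT (SE 1.54, adjusted p = 0.56 in limma) and −1.02 in BAT (adjusted p = 1). Without WT scWAT replicate 1 the scWAT difference turned to 0.44.

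*Retn* encodes resistin, which in mice comes from adipocytes. The probe read here gave 8.07, 2.75 and 6.50 for WT scWAT, against 7.55, 5.85 and 6.22 for *Lr11*-/- scWAT. WT BAT measured 4.70, 4.28 and 3.21, against 5.19, 4.98 and 4.70 for *Lr11*-/- BAT. All BAT arrays were below all scWAT arrays but WT replicate 2, the array with few adipocyte transcripts. Between genotypes the log2 fold change was 0.77 in scWAT (SE 1.07, adjusted p = 0.67 in limma) and 0.90 in BAT (adjusted p = 1), where the genotypes did not overlap on this probe but did on the other.

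*Cfd* encodes adipsin, the complement factor D protease. WT scWAT arrays had 8.38, 5.89 and 9.17, and *Lr11*-/- scWAT arrays 9.48, 8.57 and 8.89. WT BAT measured 7.75, 7.69 and 8.11 and *Lr11*-/- BAT 8.65, 7.997 and 9.21. The genotypes overlapped in both tissues, with log2 fold changes of 1.17 in scWAT (SE 0.69, adjusted p = 0.29 in limma) and 0.77 in BAT (adjusted p = 1).

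*Rbp4* encodes retinol-binding protein 4, the carrier of vitamin A in blood. The WT BAT levels were 4.77, 5.49 and 4.72, against 7.57, 7.40 and 7.56 for *Lr11*-/- BAT. WT scWAT had 6.81, 1.93 and 4.70, against 5.37, 4.62 and 5.55 for *Lr11*-/- scWAT. The *Lr11*-/- BAT arrays were the 3 highest of the 12, with an SD of only 0.09, and WT BAT lay within the range of scWAT. The BAT log2 fold change was 2.52 (SE 0.91, 95% interval 0.50 to 4.53, 5.73-fold), with adjusted p = 1 in limma over all probes. The SE takes in the scWAT arrays, where *Rbp4* spread most. A fit to the 6 BAT arrays alone gave the same difference with adjusted p = 0.022 in limma, in a range of 0.022 to 1 over the alternatives.

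The *Rbp4* difference in BAT was 2.80 in the first array series and 2.38 in the second. It was between 2.38 and 2.77 with any 1 BAT array left out and 2.45 relative to the adipocyte markers. Without the arrays that carried muscle RNA it was 1.99, but this sets 2 *Lr11*-/- arrays against the 1 WT BAT array left, replicate 2. In BAT the adipocyte list mean was 6.95 to 7.24 in WT and 7.12 to 7.21 in *Lr11*-/-, and the brown list 5.37 to 5.69 and 5.97 to 6.32. In scWAT the genotypes overlapped for *Rbp4*, at a difference of 0.70 (SE 0.91, adjusted p = 0.65 in limma).

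FGF21 and GDF15 are hormones induced by mitochondrial and amino acid stress through ATF4, and FGF21 is also released by activated brown fat. For *Fgf21* the *Lr11*-/- scWAT arrays measured −4.04, 2.67 and 3.38 and the WT scWAT arrays −1.53, −2.81 and −2.16. WT BAT stood at −2.44, −1.49 and −2.12, and *Lr11*-/- BAT at −0.81, −0.95 and −2.30. *Lr11*-/- scWAT replicates 2 and 3 were far above the other 10 arrays and replicate 1 was the lowest of all 12. The scWAT log2 fold change was therefore uncertain, 2.84 (SE 1.51, 95% interval −0.51 to 6.19, adjusted p = 0.25 in limma). Without *Lr11*-/- scWAT replicate 1 it was 5.19 (adjusted p = 6e-04 in limma, in a range of 6e-04 to 0.64 over the alternatives). The difference was −2.51 in the first array series and 5.51 in the second. In BAT it was 0.66 (SE 1.51, adjusted p = 1 in limma).

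For *Gdf15*, a stress hormone whose receptor GFRAL lies in the hindbrain, the WT BAT arrays had 1.75, 3.06 and 1.19 and the *Lr11*-/- BAT arrays −1.41, 0.57 and −2.27. All *Lr11*-/- values were below all WT values in BAT. The difference was −3.04 (SE 1.62, 95% interval −6.62 to 0.54, an 8.21-fold lower mean), with adjusted p = 1 in limma. It was −3.17 and −2.97 in the array series and between −3.84 and −2.42 with 1 BAT array left out. WT scWAT had −1.09, 3.45 and −2.30, and *Lr11*-/- scWAT −1.41, 3.51 and 3.74. The scWAT arrays fell into high and low values in both genotypes, with the WT array of few adipocyte transcripts and *Lr11*-/- replicates 2 and 3 high. The log2 fold change there was 1.93 (SE 1.62, adjusted p = 0.47 in limma).

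Of the 10 genes listed for the integrated stress response, the ATF4 program known for inducing both hormones, 1 passed the test in scWAT, *Asns*, with 0 lower. The share over all probes was 5.27%. *Asns*, asparagine synthetase, rose by 2.10 on the log2 scale in *Lr11*-/- scWAT (SE 0.37, adjusted p = 0.029 in limma). The WT arrays had 3.99, 2.83 and 3.55 and the *Lr11*-/- arrays 4.83, 5.85 and 5.99. *Trib3*, a pseudokinase target of ATF4, measured 1.78, 4.02 and 4.93 in *Lr11*-/- scWAT against 1.51 to 2.02 in WT, and *Ddit3*, which encodes CHOP, measured −0.12, 2.43 and 2.42 against −0.01 to 0.54. Thus replicates 2 and 3, the arrays with high *Fgf21*, had the highest values of both. *Asns*, *Atf4* and *Sesn2* were also highest on these replicates. The rest of the list did not share this pattern. *Chac1*, another ATF4 target, was highest on *Lr11*-/- scWAT replicate 1 and *Atf3* on WT scWAT replicate 3. *Psat1* and *Phgdh* were highest on WT scWAT replicate 1 and *Ppp1r15a* on WT scWAT replicate 2. The median over the list was 0.61 in scWAT and 0.19 in BAT, beside 0.04 over all probes in both. Without WT scWAT replicate 2 the list had 0 calls in scWAT at a median of 0.59, while calls over all probes fell from 1692 to 222. Without the arrays that carried muscle RNA its median in scWAT was 0.90.

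**Figure D4:**
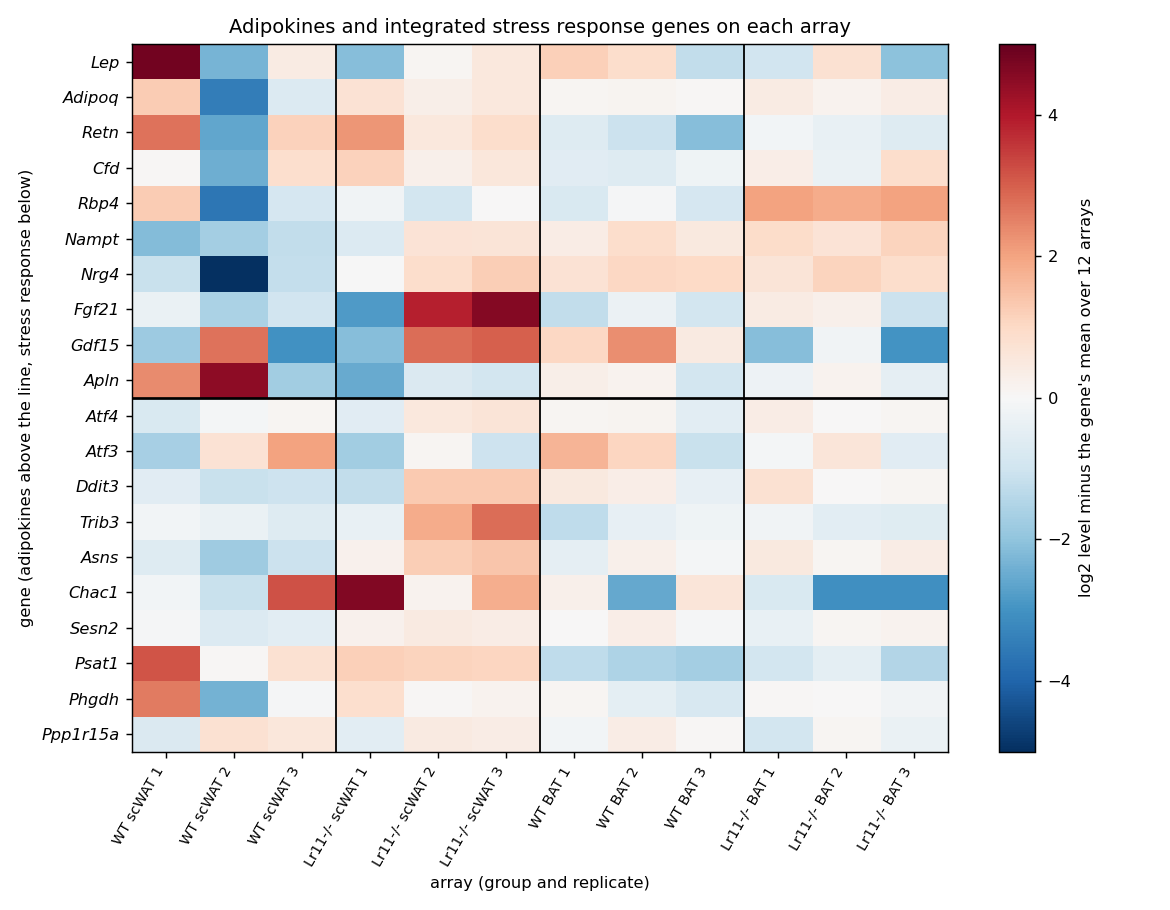
Level of the 10 adipokines (above the line) and 10 integrated stress response genes (below) on each array, as log2 difference from the gene's own mean over the 12 arrays (red above, blue below; values past the ends of the scale take the end colour). *Fgf21* stands 3.89 and 4.59 above its mean on *Lr11*-/- scWAT replicates 2 and 3, where *Trib3*, *Ddit3* and *Asns* are also above theirs. *Chac1*, *Atf3*, *Psat1*, *Phgdh* and *Ppp1r15a* are highest on other arrays. *Nrg4* is lowest on WT scWAT replicate 2.

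*Apln* encodes apelin, a peptide of adipocytes and endothelium that acts on the receptor APLNR. WT scWAT measured 1.81, 3.92 and −2.31, against −3.10, −1.27 and −1.47 for *Lr11*-/- scWAT. WT BAT measured −0.27, −0.40 and −1.50, against −0.83, −0.38 and −1.02 for *Lr11*-/- BAT. A pair of WT scWAT arrays was high, while replicate 3 lay within the *Lr11*-/- range, so the groups overlapped. The scWAT log2 fold change was −3.09 (SE 1.22, 95% interval −5.78 to −0.40), with adjusted p = 0.13 in limma. Without WT scWAT replicate 3, one of the arrays with muscle RNA, it was −4.82 (adjusted p = 0.0053 in limma, in a range of 0.0053 to 0.4 over the alternatives). In BAT it was −0.02 (SE 1.22).

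Between tissues of WT mice, *Nampt* and *Nrg4* were higher in BAT and the other 8 genes did not pass the test, 2 of 10 beside 24.8% of all probes. The same 2 had an unadjusted p under 0.05, as did 40.1% of all probes. The *Nampt* log2 fold change, BAT minus scWAT, was 2.27 (SE 0.38, adjusted p = 0.0046 in limma), and that of *Nrg4* was 3.42 (SE 0.88, adjusted p = 0.019 in limma). Both had no overlap between WT BAT and WT scWAT, where 40.2% of all probes had none. Relative to the adipocyte markers they were 0.57 (adjusted p = 0.52, range 0.00053 to 0.52 over the alternatives) and 1.72 (adjusted p = 0.056) in limma, so that neither passed. On that scale 2 other genes did, *Retn* at −3.41 (adjusted p = 0.012) and *Apln* at −3.56 (adjusted p = 0.042). With 1 WT BAT array left out the *Nrg4* adjusted p was 0.05 to 0.064, in a range of 0.0086 to 0.16 over the alternatives. *Retn* had a BAT minus scWAT difference of −1.71 (SE 1.07, adjusted p = 0.25 in limma), and without WT scWAT replicate 2 it was −3.22 (adjusted p = 0.013, in a range of 0.012 to 0.74 over the alternatives). *Adipoq* turned to a called 2.16 (adjusted p = 0.026, range 0.026 to 0.8) without WT scWAT replicate 1, and *Apln* to −3.59 (adjusted p = 0.007, range 0.007 to 0.78) without WT scWAT replicate 3, both in limma.

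Between tissues of *Lr11*-/- mice limma called 0 of the 10 genes, beside 0.0405% of all probes, and 1 had an unadjusted p under 0.05, *Rbp4*, beside 9%. Its BAT minus scWAT difference was 2.33 (SE 0.91, adjusted p = 0.49 in limma). *Rbp4* and *Apln* were higher and *Retn* lower in BAT without overlap, 3 of 10 beside 23.2% of all probes. For *Nrg4* the tissues differed by 0.18 (95% interval −1.75 to 2.12) and for *Nampt* by 0.68 (95% interval −0.16 to 1.52). *Fgf21* was −2.03 (adjusted p = 0.71), and without *Lr11*-/- scWAT replicate 1 it was −4.38 (adjusted p = 0.016 in limma, in a range of 0.0091 to 1 over the alternatives).

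The test of whether the genotype difference itself differed between scWAT and BAT called 0 of the 10 genes in limma, and 0% of all probes. At an unadjusted p under 0.05 there were 2 of 10, *Nampt* and *Nrg4*, where 11% of all probes passed. The scWAT difference exceeded that in BAT by 1.59 for *Nampt* (SE 0.54, adjusted p = 0.4) and by 3.24 for *Nrg4* (SE 1.24, adjusted p = 0.41 in limma). For *Gdf15* it was 4.97 (95% interval −0.10 to 10.03), with opposite signs in the tissues and adjusted p = 0.46. Without *Lr11*-/- scWAT replicate 1 the value was 2.04 for *Nampt* (adjusted p = 0.026, range 0.026 to 0.93 over the alternatives) and 4.53 for *Fgf21* (adjusted p = 0.014, range 0.014 to 0.93) in limma.

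*Lr11*-/- scWAT and WT BAT, set directly against each other, differed at an adjusted p under 0.05 for 0 of the 10 genes, beside 0.0965% of all probes. At an unadjusted p under 0.05 there was 1, *Retn*, beside 8.02% of all probes, with 2.48 more in *Lr11*-/- scWAT (SE 1.07, adjusted p = 0.59 in limma). *Adipoq*, *Retn* and *Cfd* were higher in *Lr11*-/- scWAT without overlap, 3 of 10 beside 18.8%. *Nrg4* differed by −0.22 (95% interval −2.16 to 1.71) and *Nampt* by −0.37 (95% interval −1.20 to 0.47). When the 4 group means of each gene were placed in order, 1 of the 30 neighbouring pairs differed at an adjusted p under 0.05, *Nampt* in *Lr11*-/- scWAT against WT scWAT. WT scWAT came last for *Adipoq*, *Cfd*, *Rbp4*, *Nampt*, *Nrg4* and *Fgf21* and first for *Lep* and *Apln*. *Lr11*-/- BAT against WT scWAT, the widest pair in the design, gave calls for *Rbp4* (3.03, SE 0.91, adjusted p = 0.03), *Nampt* (2.59) and *Nrg4* (3.38) in limma, 3 of 10 beside 31.2% of all probes. The same 3 had an unadjusted p under 0.05 and no overlap, beside 44.6% and 46.2% of all probes.

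The genes nearest in pattern were sought for *Lep* and *Nrg4* among 14705 tested genes, by the root mean square difference over the 12 arrays after each gene was centred on its mean. Nearest to *Nrg4* were *Ces1d*, a carboxylesterase of lipid droplets (0.29), *Chdh*, choline dehydrogenase (0.30), *Aldh6a1* (0.36) and *Hibch* (0.37), enzymes of valine breakdown, and *Cib2* (0.38). These are small beside the root mean square of *Nrg4* around its own mean, 1.76. For *Lep*, with 1.89, the nearest were *D430019H16Rik* (0.88), *Npr3*, which encodes the natriuretic peptide clearance receptor (0.94), and *Glyctk* (0.95). The pattern of *Lep* was thus matched less closely than that of *Nrg4*.

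Receptors and partners of the adipokines were described from a list of 18 genes, of which 12 were tested. In scWAT 0 of the 12 rose and 1 fell, *Cfb*, the complement factor B that adipsin cleaves, beside 5.27% of all probes that passed. *Cfb* fell by 2.31 on the log2 scale in *Lr11*-/- (SE 0.54, adjusted p = 0.044 in limma), from 6.17, 4.54 and 4.15 to 3.60, 2.24 and 2.08. The median of the list was −0.25 in scWAT, and without WT scWAT replicate 2 the list had 0 calls there, at a median of 0.20. Calls over all probes in scWAT fell from 1692 to 222 in that fit. Between WT tissues *Adipor2*, an adiponectin receptor, was higher in BAT by 1.43 (adjusted p = 0.03 in limma), and *Cdh13*, *Fgfr1* and *Cfb* were lower. Of all probes 24.8% passed between WT tissues. Without WT scWAT replicate 2 *Cdh13* and *Fgfr1* did not pass between these tissues, while *Adipor2* and *Cfb* did. *Klb*, the co-receptor of FGF21, measured 2.47, −3.27 and 1.17 in WT scWAT and 1.56 to 2.44 on the other 9 arrays. *Erbb4*, which binds NRG4, and *Gfral* were well above background on 0 arrays and *Erbb3* on 5.

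Beside *Nampt*, the list of 11 other genes of NAD metabolism had 10 tested. Of these 1 rose in *Lr11*-/- scWAT, *Nmnat1*, the nuclear enzyme that follows NAMPT, where 5.27% of all probes passed. *Nmnat1* measured 0.84, 0.22 and 0.80 on the WT scWAT arrays and 1.42, 2.32 and 2.78 on those of *Lr11*-/-, with the log2 fold change at 1.55 (SE 0.32, adjusted p = 0.038 in limma). *Naprt*, *Sirt3* and *Parp1* had log2 fold changes of 1.22, 2.24 and 1.097 in scWAT with adjusted p of 0.053, 0.058 and 0.06. Between WT tissues all of these 4 genes were higher in BAT, where 24.8% of all probes passed. *Sirt3*, the mitochondrial NAD-dependent deacetylase, was higher by 3.16 (adjusted p = 0.0071 in limma). Without WT scWAT replicate 2 *Nmnat1* did not pass between these tissues, while *Naprt*, *Sirt3* and *Parp1* did. The median of the list was 0.67 for the genotypes in scWAT and 0.11 in BAT, where 0 passed. Without WT scWAT replicate 2 the list had 0 calls in scWAT, at a median of 0.69, while calls over all probes fell from 1692 to 222. Without the arrays that carried muscle RNA the median there was 0.88.

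Of 11 genes related to adiponectin by their C1q domain, all tested, 0 rose and 3 fell in *Lr11*-/- scWAT, *C1qtnf1*, *C1qtnf2* and *C1qtnf7*. Over all probes 5.27% passed there, in either direction. *C1qtnf7* fell by 2.33 on the log2 scale (SE 0.34, adjusted p = 0.015 in limma), from 0.94, 1.32 and 2.15 to −0.69, −1.01 and −0.90. It was the 1 call of the list that remained without WT scWAT replicate 2, where calls over all probes fell from 1692 to 222. In the same comparison the mean of the 6 fibroblast and preadipocyte markers was 3.40 to 4.15 on the WT and 1.63 to 3.34 on the *Lr11*-/- arrays, without overlap, with a median log2 fold change of −1.45. Of these 6, 0 rose and 1 fell, *Dcn*, which encodes the matrix proteoglycan decorin, by 1.64 (SE 0.40, adjusted p = 0.045 in limma). Without WT scWAT replicate 2 that call was lost, at a list median of −1.26. The macrophage list mean was 2.08 to 3.83 in WT and 1.62 to 2.11 in *Lr11*-/- scWAT. The part of these cells in the falls of the C1q genes, and of the other genes that fell in *Lr11*-/- scWAT, was not tested. *C1qtnf12*, adipolin, was higher in WT BAT than in WT scWAT by 1.76 (adjusted p = 0.017 in limma), and *C1qtnf1*, *C1qtnf6*, *C1qtnf7* and *C1qc* were lower. Between these tissues 24.8% of all probes passed. Of 5 proteins that fold or retain adiponectin in the endoplasmic reticulum, *Erp44*, which holds adiponectin back, fell by 0.91 in *Lr11*-/- scWAT (SE 0.22, adjusted p = 0.045 in limma) and 0 rose. Without WT scWAT replicate 2 it did not pass. Of the 3 resistin-like genes 2 were tested and 0 passed, and *Retnla* ran from −0.19 on WT scWAT replicate 2 to 8.41 on replicate 1.

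A further list of 25 secreted factors of fat had 23 on the array and 20 tested. In scWAT 1 of the genes described here, *Bmp8b*, rose in *Lr11*-/-, where 5.27% of all probes passed in either direction. *Bmp8b*, a brown-fat BMP, was not well above background on any WT scWAT array and was so on 2 of the 3 *Lr11*-/- arrays. The *Lr11*-/- scWAT arrays measured −5.32, −0.29 and −2.29, and the call had adjusted p = 0.045 in limma. No fold is given, since part of the signals compared were not well above background. Between WT tissues 3 were higher in BAT, *Fndc5*, *Vegfa* and *Pm20d1*, and 7 lower, among them *Igf1* by −2.92 (adjusted p = 0.015) and *Metrnl* by −1.69 (adjusted p = 0.014 in limma). The share of all probes that passed there, in either direction, was 24.8%. *Fndc5*, the precursor of irisin and best known from muscle, measured 0.02 to 1.98 on the 5 arrays with high muscle transcripts. On the other 7 it measured −3.59 to 0.72, and the part of muscle RNA was not tested. In BAT 0 of the 20 passed between genotypes, beside 0.0187% of all probes. Without WT scWAT replicate 2 the list had 0 calls in scWAT, while calls over all probes fell from 1692 to 222.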

How the data were processed

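Total RNA of scWAT and BAT was hybridised to 12 one-colour Agilent mouse arrays, 3 per group of genotype and tissue. The deposited files hold the scanner intensity per spot from Feature Extraction 10.10 (per the file headers), with background subtracted by that software (gProcessedSignal). From these, log2(gProcessedSignal) minus the 75th percentile of each array was computed, control spots and outlier spots were left out, spots of a probe were averaged, and probes were named by matching accessions to RefSeq symbols (27235 of 28685 probes with a RefSeq accession matched). Each gene was read from its brightest tested probe by mean over the arrays, and other probes are given where they differ. The array number limits the precision.

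The 4 groups entered 1 limma fit (lmFit and eBayes, limma 3.58.1, R 4.3.3; files read by the R package data.table of version 1.17.8) with Benjamini-Hochberg adjustment over the 32121 probes tested, and calls were made at an adjusted p under 0.05. Figures were drawn with Python 3.11.15 and matplotlib 3.10.9. The scripts were tested on simulated data. All 10 members are named, and the other lists are given by counts with up to 4 genes and their values. Of these, the ones that did not pass the test were chosen after their values were seen. The members and lists were chosen with earlier results of these data known. *Nucb2*, *Asip* and *Cd68* were not matched on the array by symbol. Alternatives were other scalings, no filter on dim probes, background correction with normexp (on the median signal, since the mean signal is not a column of these files), quantile normalization, array weights, slide as a block, only the arrays compared, 1 array series, other thresholds and each array left out. Levels relative to the adipocyte markers, and fits without the arrays that carried muscle RNA, were added after seeing the data. First-series scWAT arrays lay on slide 1, second-series arrays on slide 2 and first-series BAT arrays on slide 3. One gene of the list of secreted factors is not reported here.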

Additional observations from a re-analysis of the deposited data

How the results depend on the processing

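With 3 arrays per group and unequal spread, several calls turned on single arrays, and the cause was not tested. In scWAT the 1 adipokine called became 0 relative to the adipocyte markers, 0 without the filter, 0 with only the arrays compared and 0 at an adjusted p under 0.01. It became 3 with array weights, 3 in the second array series alone, 3 without the muscle arrays and 2 at 0.10, and ran from 0 to 3 with 1 array left out. Over all probes, the 1692 calls in scWAT became 3 without *Lr11*-/- scWAT replicate 3 and 6371 without replicate 1. They became 4409 without WT scWAT replicate 1 and 4617 without replicate 3. In these fits, and without *Lr11*-/- scWAT replicate 1, 3 adipokines were called. Without WT scWAT replicate 2 there were 222 calls, and with any 1 BAT array left out 145 to 175. Relative to the adipocyte markers, and without the filter, the calls over all probes in scWAT were also fewer than in the main fit. For the remaining settings, and for the comparisons that follow, no count over all probes is given. Whether the adipokines stood out there was not tested, and their counts alone do not show a change particular to them. In BAT the 0 became 1 with only the arrays compared. Between WT tissues the 2 became 1 with the slide as a block, 1 with only the arrays compared, 1 without the muscle arrays and 1 at 0.01, and 1 to 3 with 1 array left out. Relative to the adipocyte markers the count stayed at 2, but of other genes, *Retn* and *Apln* in place of *Nampt* and *Nrg4*. Without the muscle arrays WT BAT is a single array, assumed to vary like the other groups. Between *Lr11*-/- tissues the 0 became 3 with array weights and 0 to 1 with 1 array left out. For the difference of differences the 0 became 2 with array weights, 1 in the second series alone and 0 to 2 with 1 array left out. The 1 neighbouring pair called became 0 without the filter, 4 with array weights, 2 in the second series alone and 0 to 3 with 1 array left out.

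Signs turned as follows. With array weights these were *Retn* in scWAT (−0.14), *Cfd* between WT tissues (−0.26), *Nrg4* between *Lr11*-/- tissues (−0.0311) and the *Cfd* difference of differences (−0.20). Relative to the adipocyte markers they were, in scWAT, *Adipoq* (−0.0526), *Retn* (−0.76), *Cfd* (−0.36) and *Rbp4* (−0.83), between WT tissues *Adipoq* (−0.65), *Cfd* (−1.67), *Rbp4* (−1.19) and *Fgf21* (−1.55), between *Lr11*-/- tissues *Nrg4* (−0.0566), and for the difference of differences *Adipoq* (−0.21) and *Cfd* (−1.06). Median scaling turned *Nrg4* (0.0101) and *Apln* (0.031) in BAT. Between WT tissues, no scaling turned *Cfd* (−0.28) and *Fgf21* (−0.17), normexp *Cfd* (−0.0246), quantile normalization *Cfd* (−0.41) and the slide as a block *Fgf21* (−0.90). The slide block also turned *Lep* (0.15) and *Adipoq* (0.39) between *Lr11*-/- tissues. The second series alone turned *Lep* in scWAT (1.25), between WT tissues (0.76) and for the difference of differences (1.70), *Apln* in BAT (0.25), *Nrg4* between *Lr11*-/- tissues (−0.0604) and the *Retn* difference of differences (0.31). Without the muscle arrays *Fgf21* in BAT (−0.13), *Nrg4* between *Lr11*-/- tissues (−0.0604) and the differences of differences of *Lep* (0.55) and *Retn* (0.0614) turned.

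With 1 array left out, the lowest and highest values of those that turned were, in scWAT, −3.13 and 0.44 for *Lep*, −0.57 and 1.87 for *Rbp4* and −0.74 and 1.91 for *Retn*. In BAT they were −0.41 and 0.21 for *Apln* and −0.157 and 0.0735 for *Nrg4*. Between WT tissues they were −0.19 and 2.16 for *Adipoq*, −0.93 and 0.71 for *Cfd*, −0.17 and 0.47 for *Fgf21*, −2.35 and 1.22 for *Lep* and −0.76 and 1.68 for *Rbp4*. Between *Lr11*-/- tissues they were −1.05 and 0.42 for *Lep* and −0.17 and 0.46 for *Nrg4*, and for the difference of differences −0.56 and 1.08 for *Cfd*, −2.12 and 1.46 for *Lep* and −1.64 and 1.02 for *Retn*. No paired analysis was possible because the labels carry no replicate numbers.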
